A study of Homo sapiens with 6 samples.

Results

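The 10 genes followed here are 7 that encode cytoplasmic intermediate filament proteins and 3 that encode nuclear lamins. They are the neuronal subunits NEFL, NEFM, NEFH, INA and PRPH, the mesenchymal and progenitor filaments VIM and NES, and the lamins LMNA, LMNB1 and LMNB2. They were chosen by name, and all 10 were found by Ensembl identifier, version removed, among the 13885 genes of the authors' deposited table. That table is a DESeq2 comparison of 6 poly(A)-selected, strand-specific RNA-seq libraries of BE(2)-C, a human neuroblastoma line with amplified MYCN. In one group of 3, wild-type cells had been transfected for 24 h with an siRNA against PCIF1, and in the other group of 3 with a scrambled siRNA (siScramble). All 6 then received ATRA (all-trans retinoic acid, 10 µM) for 4 days, so no group shows the line without ATRA. A single siRNA treatment against PCIF1 and a single line were used, and the sample titles do not give the number of siRNA sequences. PCIF1 makes m6Am, the methylated adenosine next to the cap of mRNAs that begin with A, and the series title links that mark to the termination factor PCF11 and to full-length transcription.

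Intermediate filaments are built from proteins with a central coiled-coil rod that pair and pack into rope-like polymers. In neurons NEFL, NEFM, NEFH and INA co-assemble into neurofilaments that set axon calibre, and PRPH joins them mainly in peripheral neurons, among them sympathetic neurons, the lineage from which neuroblastoma arises. VIM fills mesenchymal cells and NES marks neural progenitors, and both are commonly lower in mature neurons. The lamins line the inner nuclear membrane, where LMNA gives lamins A and C by alternative splicing and LMNB1 and LMNB2 give the B-type lamins.

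Fold changes are siPCIF1 over siScramble. The header does not state the direction. It was read from the sign of PCIF1, which lay at -0.82 (SE 0.19) on the log2 scale per the authors' deposited table, or 56.6% of the siScramble level (95% interval 43.7 to 73.4%). PCIF1 does not stand out on that reading: it ranked 757 from the lowest log2 fold change, and 5.44% of all genes lay lower, per the authors' deposited table. Read in plain order, the name of the table would turn every sign below, and the sign of PCIF1 is for that reason no check of the knockdown. Every percentage of the siScramble level, rank from the lowest, and derived group level or share below would then change groups: VIM would rank 101 from the highest in place of the lowest, and PRPH would be 1.71-fold higher in place of lower. Values of single libraries were not analysed here, so the SE from the DESeq2 fit stands for the spread. Nothing in the labels says that the 3 libraries of a group came from separate cultures, and the p-values then measure only the spread between these libraries, which may be technical. The median gene of the authors' deposited table had a mean normalised count of 175, and the range was 7.01 to 4.78e+06. Cell identity was checked on adrenergic neuroblastoma markers. The authors' deposited table held 16 of the 16 listed, with means of 43.3 to 8104, while 10 of 12 immune, epithelial, endothelial and blood markers were not listed there.

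Because PCIF1 acts on mRNAs that begin with A, the annotated first bases of the filament genes are shown first. RefSeq (GRCh38.p14) promoter sequences were matched for 7 of the 10 genes, with 10 annotated starts. Each line holds 15 bases before the start and the first 15 transcribed bases, 5′ to 3′ on the gene's strand, with the first transcribed base in capitals.
VIM (chr10:17228226-17228255, + strand): gtgcaatcgtgatctGggaggcccacgtat
LMNA, start furthest upstream (chr1:156082558-156082587, + strand): ccttgggggcgcgggGacaaattccttgac
LMNA, next start (chr1:156082866-156082895, + strand): gctcactgcggctttCtctctcgctcccct
LMNA, start furthest downstream (chr1:156106701-156106730, + strand): cccaggtggtgagggGccaaagctcgggga
PRPH (chr12:49295132-49295161, + strand): agcggtctgcggctcCttcccagcccccgg
INA (chr10:103277123-103277152, + strand): gcaccgccccgccgcGccctgcctgccgca
NES (chr1:156677393-156677422, - strand): ccactcccgactctcAgtcgctcaggctac
LMNB1, upstream start (chr5:126776608-126776637, + strand): cccgagccctccagcGgagcgggggataag
LMNB1, downstream start (chr5:126777121-126777150, + strand): ctccccccgcccgccGctccgtgcagcctg
LMNB2 (chr19:2456945-2456974, - strand): gcgcggcgcggcgccAtcttgcagccggcg
An A stood at the annotated start of NES and LMNB2, 2 of the 7 genes and 2 of the 10 starts. Those of the other 5 genes, VIM, LMNA, PRPH, INA and LMNB1, carried G or C. Among 15020 RefSeq starts of 10314 genes matched by symbol, 46.1% had A, 39.8% G, 12.1% C and 2.00% T. These are annotated starts, not measured ones. The VIM window lies 1037 bases upstream of the start of the main GENCODE 29 transcript, the nearest LMNA window 7991 bases upstream, and the PRPH window 1445 bases downstream. The starts of LMNB2, INA and NES lie 37, 25 and 10 bases from that of the main transcript, and those of LMNB1 525 and 12 bases. No start thus coincides with that of the main transcript, and the first bases, A at NES and LMNB2 included, hold for the RefSeq starts only. No promoter entry was used for NEFL, NEFM and NEFH.

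VIM, LMNA and PRPH were lower after siPCIF1, NEFM was slightly higher, and 6 genes did not pass the test. By the authors' deposited values, 3 of the 10 genes fell and 1 rose at a DESeq2 adjusted p under 0.05, a share near the background, since 34.0% of all genes passed. Split by direction, 17.7% of all genes were lower and 16.3% higher per the authors' deposited table. The median log2 fold change of the 10 genes was -0.02, against 0.0059 over all genes, whose quartiles were -0.31 and 0.33, per the authors' deposited table. Under stricter rules the 3 decreases of 10 remained at an adjusted p under 0.01, where 22.9% of all genes passed, and against an absolute log2 change of 0.3, where 10.5% passed; with the DESeq2 statistics scaled to their robust SD VIM alone passed, where 0.972% of all genes did. By its median and its share at an adjusted p under 0.05 the list lay near all genes. The larger changes were in single members, which differed from each other within every class. Apart from NEFH, the 10 genes had means above that of the median gene, and the shares over all genes were not matched for expression. In bulk RNA, fewer cells with a transcript and less of it per cell cannot be told apart.

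**Figure D1:**
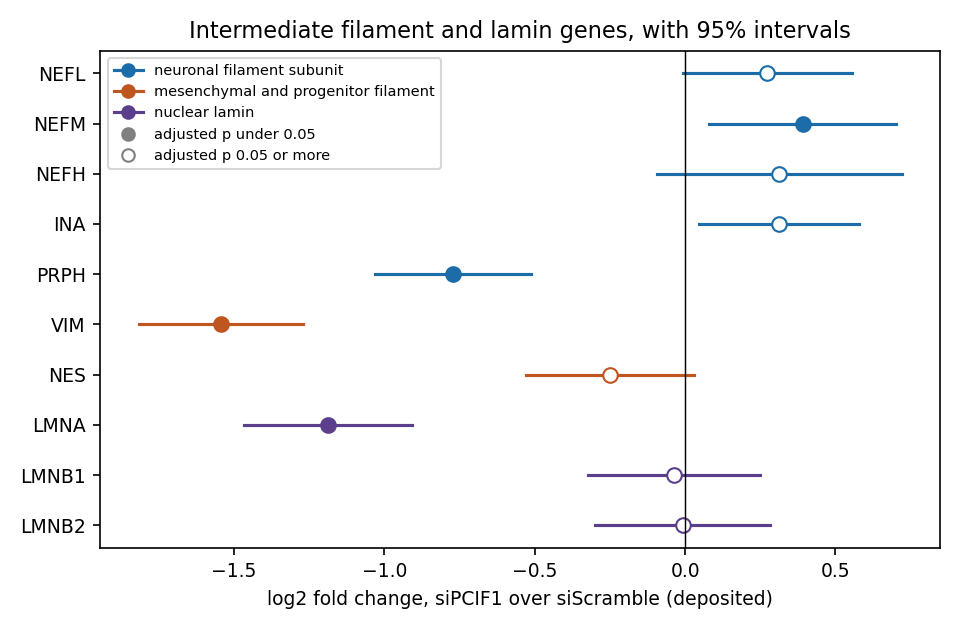
Log2 fold change (siPCIF1 over siScramble, deposited values) of the 10 genes on the horizontal axis, one gene per row. Points are estimates, bars are 95% intervals from the deposited SE, filled points have an adjusted p under 0.05, and colour gives the class. VIM, LMNA and PRPH lie left of 0 with intervals clear of it, and NEFL, NEFM, NEFH and INA sit close together between 0.27 and 0.39.

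Among the neuronal subunits, the 4 neurofilament genes lay close to each other and PRPH went the other way. NEFL, the light chain needed for filament assembly, had a mean of 4788 normalised counts and a log2 fold change of 0.27 (SE 0.14, 95% interval -0.01 to 0.56) per the authors' deposited table. NEFL missed the threshold (DESeq2 adjusted p = 0.128). NEFM, the medium chain, had a mean of 1454 and rose by 0.39 (SE 0.16) per the authors' deposited table, or 1.31-fold (DESeq2 adjusted p = 0.0426). INA, which encodes alpha-internexin, was at 0.31 (SE 0.14) with a mean of 1180 per the authors' deposited table and just missed the threshold (DESeq2 adjusted p = 0.0591). The heavy chain NEFH, which is known to accumulate late as axons mature, was at 0.31 (SE 0.21) per the authors' deposited table with a mean of only 91.8 (DESeq2 adjusted p = 0.247). All 4 values were positive and spanned 0.27 to 0.39, but a joint test of them was not made, and the call of NEFM was close to the threshold.

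PRPH was the neuronal subunit that fell. Its mean was 4683 normalised counts, nearly that of NEFL, and its log2 fold change was -0.77 (SE 0.13) per the authors' deposited table (DESeq2 adjusted p = 1.31e-07). That put PRPH at 58.5% of the siScramble level per the authors' deposited table, with a 95% interval of 48.9 to 70.0%. From the deposited mean and an estimate of the unshrunken fold change, the 2 group means of PRPH were 5974 normalised counts in siScramble and 3392 in siPCIF1. The same derivation put NEFL at 4305 and 5272. These derived means have no error of their own, and they are not per length, so they do not rank one gene against another. The interval of PRPH per the authors' deposited table, -1.03 to -0.51, does not overlap that of NEFM, 0.08 to 0.70; the difference between the genes was not tested.

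VIM had the largest change of the 10 genes. Its mean was 3022 normalised counts, rank 328 of all genes, and its log2 fold change was -1.54 (SE 0.14) per the authors' deposited table, or 2.92-fold lower (DESeq2 adjusted p = 9.86e-26). The 95% interval for the share of the siScramble level left was 28.4 to 41.5% per the authors' deposited table. VIM ranked 101 from the lowest log2 fold change of all genes per the authors' deposited table, and among the 564 genes with means of 2000 or more it ranked 13 from the lowest. The derived group means of VIM, which use the unshrunken estimate of -1.64, were 4578 normalised counts in siScramble and 1467 in siPCIF1. NES, the large progenitor filament that needs a partner such as vimentin to polymerise, did not pass: its log2 fold change was -0.25 (SE 0.14, 95% interval -0.53 to 0.03) at a mean of 1314 per the authors' deposited table (DESeq2 adjusted p = 0.165). The intervals of VIM and NES do not overlap per the authors' deposited table; the difference between the 2 genes was not tested.

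**Figure D2:**
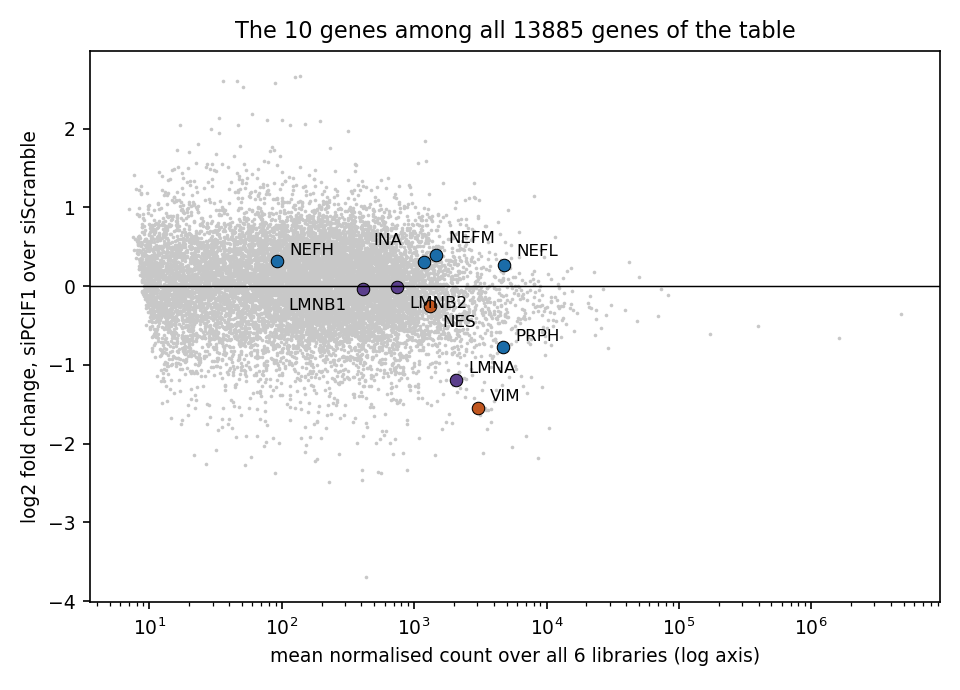
Mean normalised count over the 6 libraries (horizontal, log axis) against the log2 fold change (vertical) for all 13885 genes in grey, with the 10 genes in the colours of their class (blue neuronal subunits, orange VIM and NES, purple lamins). VIM, LMNA and PRPH lie at means of 2056 to 4683, in the lower part of the cloud at that expression. Among the 564 genes with means of 2000 or more, VIM, LMNA and PRPH rank 13, 27 and 64 from the lowest. LMNB1 and LMNB2 lie on the zero line.

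The lamins split by type. LMNA had a mean of 2056 normalised counts and a log2 fold change of -1.19 (SE 0.14) per the authors' deposited table, which is 43.9% of the siScramble level with an interval of 36.2 to 53.3% (DESeq2 adjusted p = 6.78e-15). LMNB1 was at -0.04 (SE 0.15, 95% interval -0.32 to 0.25; DESeq2 adjusted p = 0.867) and LMNB2 at -0.01 (SE 0.15, -0.30 to 0.28; DESeq2 adjusted p = 0.973) per the authors' deposited table. The intervals allow 79.8 to 119% of the siScramble level for LMNB1 and 81.3 to 122% for LMNB2, and do not reach the interval of LMNA; the difference between the genes was not tested. By derived group means LMNA was at 2905 normalised counts in siScramble and 1208 in siPCIF1, LMNB1 at 416 and 405, and LMNB2 at 747 and 742. LMNA has 25 annotated transcripts in GENCODE 29, and a count per gene does not separate lamin A from lamin C.

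Levels of different genes were compared per kilobase of the main transcript. VIM stood highest at 1618 normalised counts per kb, followed by PRPH at 1443, NEFL at 1173, LMNA at 645, INA at 365 and NEFM at 362. NES was at 236, LMNB2 at 159, LMNB1 at 143 and NEFH at 24.3 per kb. The annotations differ on where PRPH begins. Counting only the bases inside the RefSeq gene, PRPH came to 2602 per kb, above VIM. With the longest transcript of each gene VIM came to 1134 per kb, below PRPH and NEFL. The order of VIM, PRPH and NEFL is thus not settled, nor is that of INA and NEFM, which lie at nearly the same level. Under these 3 lengths NEFH was the lowest and PRPH, VIM and NEFL were the highest 3.

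**Figure D3:**
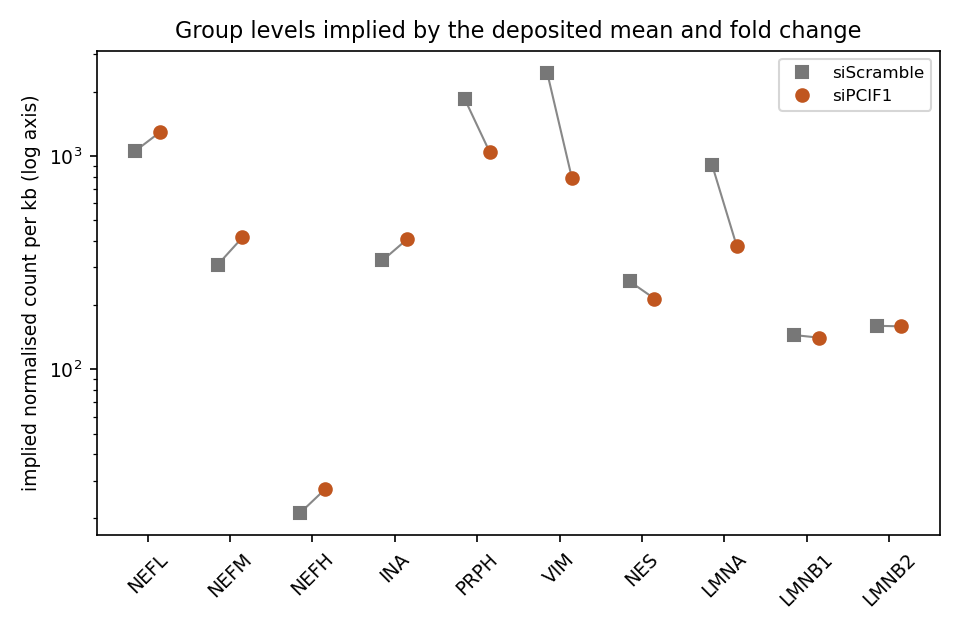
Group levels of the 10 genes in normalised counts per kb of the main transcript (vertical, log axis), siScramble as grey squares and siPCIF1 as orange circles, joined per gene. Each pair is derived from the deposited mean and the unshrunken fold change and has no error bar, because values of single libraries were not analysed. VIM drops from 2451 to 785 per kb and falls below NEFL, which goes from 1055 to 1291.

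The makeup of the filament mRNA pool can be read from the same derived levels, as a description without error. The summed level of the 7 cytoplasmic filament genes was 6258 normalised counts per kb in siScramble and 4185 in siPCIF1, 0.669 of the former. VIM made up 39.2% of that sum in siScramble and 18.8% in siPCIF1. NEFL, NEFM, NEFH and INA together made up 27.3% and 51.1%, and PRPH 29.4% and 24.97%. NEFL alone was at 16.9% and 30.9%, above PRPH in siPCIF1. These are shares of a sum that shrank, so they rose by more than the levels did. NEFL itself went from 1055 to 1291 per kb, and the 5 neuronal subunits with PRPH summed to 0.897 of their siScramble level. Of the 4 neurofilament genes, NEFM alone had passed as higher. With the RefSeq bounds the share of VIM was 30.8% and 14.8%, and that of the 4 neurofilament genes 24.2% and 45.6%, but PRPH, at 41.7% and 35.6%, then stayed above NEFL, at 15.1% and 27.8%. The 4 neurofilament genes kept nearly the same proportions to each other: per kb, NEFL stood to NEFM as 3.41 to 1 in siScramble and 3.12 to 1 in siPCIF1, and to INA as 3.26 and 3.17. Among the lamins, LMNA per kb was 2.99 times the sum of LMNB1 and LMNB2 in siScramble and 1.26 times in siPCIF1.

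The 10 genes differ in base composition, and base composition moved with the fold change across the whole table. From the fifth of genes lowest in transcript GC content to the highest, the median log2 fold change went from 0.33 to -0.24 per the authors' deposited table. Across the 8797 genes whose mean reached 100, which are not independent replicates, Spearman's rho of GC content and fold change was -0.48. The main transcripts of PRPH, LMNA and LMNB2 had 61.6, 61.5 and 61.4% GC, NES 59.3%, NEFH 57.8%, NEFM 54.0%, VIM 53.9%, INA 50.8%, NEFL 48.2% and LMNB1 47.7%. LMNA and LMNB2 had nearly the same GC content and gave -1.19 and -0.01 per the authors' deposited table. After a trend on GC content, transcript length and expression had been taken out of the authors' deposited table, VIM was at -1.20, LMNA at -0.85 and PRPH at -0.40, with adjusted p from the DESeq2 values of 1.21e-15, 7.77e-08 and 0.0142. PRPH thus moved by more than 1.5 times, as did INA, and NES, which passed in neither, went to -0.05. NEFM was then at 0.58 (adjusted p = 0.00227), INA at 0.47 (adjusted p = 0.00363) and NEFL at 0.40 (adjusted p = 0.0286) from the DESeq2 values, so that 3 neurofilament genes passed in place of 1, where 24.9% of all genes passed. NEFH, at 0.44, did not (adjusted p = 0.111 from the DESeq2 values). Whether the trend is technical was not tested.

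In gene structure the filament genes are short and compact, LMNA and LMNB1 long and LMNB2 near the median gene. The neuronal and mesenchymal filament genes span 5.44 kb (PRPH) to 13.2 kb (INA), and LMNA, LMNB1 and LMNB2 57.5, 60.4 and 29.4 kb, where the median of the listed genes is 28.97 kb. NEFL, NEFM, NEFH, INA and NES have main transcripts of 3 or 4 exons, whereas PRPH and VIM have 9 and the lamins 11 or 12. PRPH and VIM, the 2 cytoplasmic filament genes that passed as lower, are type III genes. A further type III gene, GFAP, did not pass at 0.25 (SE 0.30) per the authors' deposited table, with a mean of only 10.1. In GRCh38 NEFL (ENSG00000277586.2) lies on chromosome 8 from 24950955 to 24957110 and NEFM (ENSG00000104722.13) beside it from 24913012 to 24919098. INA (ENSG00000148798.10; 103277163 to 103290351) and VIM (ENSG00000026025.15; 17228259 to 17237593) are on chromosome 10. PRPH (ENSG00000135406.13) is on chromosome 12 from 49293252 to 49298686 and NEFH (ENSG00000100285.9) on chromosome 22 from 29480230 to 29491390. NES (ENSG00000132688.10; 156668763 to 156677397) and LMNA (ENSG00000160789.19; 156082573 to 156140089) are on chromosome 1, LMNB1 (ENSG00000113368.11; 126776623 to 126837020) on chromosome 5 and LMNB2 (ENSG00000176619.12; 2427638 to 2456996) on chromosome 19.

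Exons of some members overlap other genes, and whether the counting used strand is unknown here. The antisense genes AC107373.2 at NEFL, AF106564.1 at NEFM and AC125611.4 at PRPH had means of 11.0, 60.8 and 73.0 normalised counts per the authors' deposited table, far below their partners, and log2 fold changes of 0.69, -0.17 and -0.05, none of which passed. TIMM13, which overlaps LMNB2 on its own strand, had a mean of 1037 and was at 0.11 (SE 0.13) per the authors' deposited table.

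Most other intermediate filament genes were weakly expressed, and the median of their means was 35.7 normalised counts. The authors' deposited table held 11 of 16 listed, and 0 passed the DESeq2 threshold, where 34.0% of all genes passed. With the trend removed 0 passed as well, where 24.9% of all genes did. As deposited, 0 had an unadjusted p under 0.05. SYNM, which encodes synemin, had the highest mean, 285, and was at -0.29 (SE 0.16) per the authors' deposited table. The keratin gene KRT19 and IFFO1 followed with means of 270 and 235. They were at 0.00047 (SE 0.18) and 0.04 (SE 0.16) per the authors' deposited table, without passing. The keratin genes KRT80, KRT18 and KRT7 had means of 18.7, 12.2 and 11.3 and log2 fold changes of 0.50, -0.40 and -0.37 per the authors' deposited table, each with an SE of 0.28 or 0.29; none of the 3 passed, and KRT18 has many near-identical pseudogenes. The median of the list was 0.00047 per the authors' deposited table.

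Linker proteins tie filaments to each other and to junctions. Of 5 measured among 8 listed, 3 rose and 0 fell by DESeq2 per the authors' deposited table, where 16.3% of all genes rose, and the median was 0.56. So short a list, chosen with earlier results known, has no test of its own. EPPK1, the epithelial linker epiplakin, was at 2.11 (SE 0.24), or 4.33-fold, at a mean of 77.8 per the authors' deposited table (DESeq2 adjusted p = 2.37e-15). The cytoskeletal crosslinkers MACF1 and DST were at 0.56 (SE 0.14) and 0.60 (SE 0.16) per the authors' deposited table. With the trend removed, 2 of the 5 passed, where 24.9% of all genes did. MACF1 was then close to the threshold (0.35, adjusted p = 0.0453) and DST missed it (0.31, adjusted p = 0.154, from the DESeq2 values). PLEC, which encodes plectin, the general linker of vimentin, did not pass at -0.31 (SE 0.15) per the authors' deposited table (DESeq2 adjusted p = 0.102).

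Of 6 measured chaperones and turnover factors of filaments, 1 rose and 0 fell by DESeq2 per the authors' deposited table, where 34.0% of all genes passed, and the median was -0.08. Of the 6, 0 passed with the trend removed, where 24.9% of all genes passed. DNAJB6, HSPB8 and STUB1 were at 0.30, -0.48 and -0.20 per the authors' deposited table, without passing. Among 12 kinases, kinase activators and phosphatase subunits that act on filaments or lamins, 1 rose and 4 fell by DESeq2 per the authors' deposited table, against 34.0% of all genes in either direction and 17.7% lower, and the median was -0.11. The mitotic kinases AURKB and PLK1 were at -1.09 (SE 0.16) and -1.27 (SE 0.28) and the phosphatase PPP1CA at -0.59 (SE 0.14), and ROCK2 was the one that rose, at 0.61 (SE 0.18), per the authors' deposited table. The fourth decrease, named after its value was seen, was the CDK5 activator CDK5R2 at -0.39 (SE 0.16, DESeq2 adjusted p = 0.0484) per the authors' deposited table. With the trend removed, PPP1CA, ROCK2 and CDK5R2 no longer passed, at -0.18, 0.24 and -0.04, and CDK5R1, another activator of CDK5, passed at 0.56.

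Enzymes that mature the farnesylated lamins went both ways. All 5 listed were measured, and 1 rose and 2 fell by DESeq2 per the authors' deposited table, where 34.0% of all genes passed, and the median was 0.21. ZMPSTE24, the protease that cleaves prelamin A, rose by 0.72 (SE 0.18), while the CAAX protease RCE1 and the farnesyltransferase subunit FNTB were at -0.47 (SE 0.18) and -0.53 (SE 0.21) per the authors' deposited table. With the trend removed, RCE1 and FNTB no longer passed, at -0.17 and -0.42. FNTA was at 0.25 (SE 0.16) and did not pass per the authors' deposited table. LMNA and ZMPSTE24, which acts on the lamin A precursor, differed in sign.

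Among 16 measured nuclear lamina proteins, 1 rose and 3 fell by DESeq2 per the authors' deposited table, where 34.0% of all genes passed; the median was -0.02, and 12 did not pass. LEMD2 and EMD, inner nuclear membrane proteins of the LEM family, were at -0.73 (SE 0.15) and -0.70 (SE 0.15), and TMEM43, a membrane protein that binds lamins and emerin, at -0.68 (SE 0.16) per the authors' deposited table. TPR, of the nuclear pore basket, was at 0.72 (SE 0.16) per the authors' deposited table. With the trend removed EMD and TPR lay just over the threshold, at -0.37 and 0.38 (adjusted p = 0.0549 and 0.0631 from the DESeq2 values), while ANKLE2 and LBR passed at 0.35 and -0.35 (adjusted p = 0.0409 and 0.0477 from the DESeq2 values). Of 6 measured genes of the LINC complex, which couples the lamina to the cytoskeleton, 2 rose and 2 fell by DESeq2 per the authors' deposited table, where 34.0% of all genes passed. SUN2, which binds lamin A, was at -0.99 (SE 0.15) and the nesprin SYNE3, known for linking the nucleus to intermediate filaments through plectin, at -1.37 (SE 0.19), whereas the giant nesprins SYNE1 and SYNE2 were at 0.81 (SE 0.20) and 0.75 (SE 0.15), per the authors' deposited table. With the trend removed these 4 still passed, at -0.73, -1.18, 0.54 and 0.39, where 24.9% of all genes passed.

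**Figure D4:**
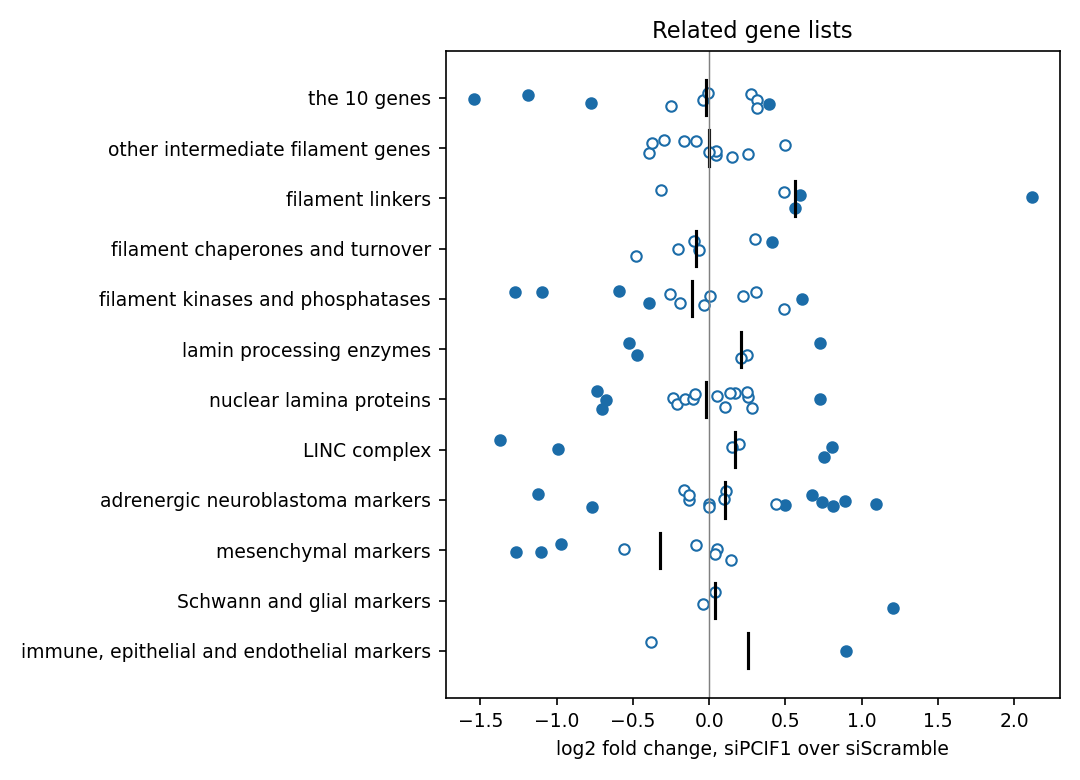
Log2 fold change (horizontal) of each measured gene of the 10 and of 11 related lists, one list per row. Filled points have an adjusted p under 0.05 and black bars are medians; points are spread vertically for legibility. The lists for lamina proteins and the LINC complex hold changes in both directions, and filament linkers lie mostly to the right of 0.

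Markers of cell state were read beside these genes, and their part in the filament values was not tested. Of 16 mesenchymal markers, which leave out VIM itself, the authors' deposited table held 8, with means of 11.0 to 6617. Of these, 3 fell and 0 rose by DESeq2 per the authors' deposited table, where 34.0% of all genes passed and 17.7% were lower, and the median was -0.32. The lectin LGALS1 was at -1.27 (SE 0.12), FOSL2 at -0.97 (SE 0.17) and FN1 at -1.10 (SE 0.22) per the authors' deposited table. CD44 was at -0.56 (SE 0.27) and did not pass per the authors' deposited table, TWIST1 and SNAI2 were not among those that passed, and PRRX1, YAP1 and WWTR1 were not listed there. After removal of the trend 4 were lower and 1 higher: CD44 passed at -0.76 and TWIST1 at 0.44 (adjusted p = 0.0275 and 0.0240 from the DESeq2 values). Of 16 adrenergic markers, 6 rose and 2 fell by DESeq2 per the authors' deposited table, where 34.0% of all genes passed and 16.3% were higher, and the median was 0.11. After removal of the trend 9 were higher and 2 lower, where 24.9% of all genes passed. ISL1, a transcription factor of sympathetic neurons, was at -0.77, and MYCN and CHGB were at 1.09 and 0.89, per the authors' deposited table. Among 8 Schwann and glial markers 3 were listed, of which 1 rose and 0 fell by DESeq2, where 34.0% of all genes passed. S100B was the gene that rose, at 1.21 (SE 0.22) with a mean of 77.2 per the authors' deposited table. PMP22 was at -0.04 per the authors' deposited table, and SOX10 was not listed there. Of the 2 listed immune and epithelial markers 1 rose and 0 fell by DESeq2, where 16.3% of all genes were higher and 34.0% passed. CD14, which rose, was at 0.90 (SE 0.19) and EPCAM at -0.38 (SE 0.29) per the authors' deposited table, and PTPRC was not listed there.

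**Figure D5:**
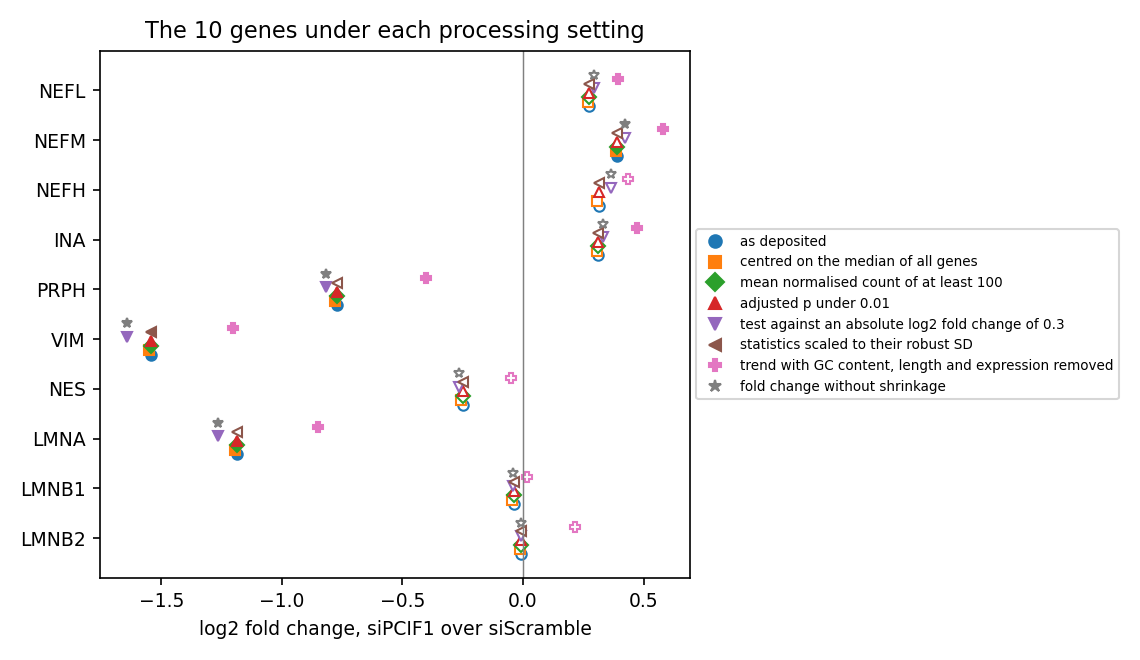
Log2 fold change of the 10 genes (horizontal, one gene per row) as deposited and under 7 other settings, marked by symbol and colour. Filled symbols pass the threshold of their setting. The sign of VIM, LMNA, PRPH and the 4 neurofilament genes was the same in each setting shown, and removal of the trend moved all 10 genes to the right.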

How the data were processed

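The data were 6 RNA-seq libraries, 3 per group, of which the authors' deposited DESeq2 comparison was analysed. The submitters' processing notes name the build hg38 and the tools STAR 2.7.10a, HTSeq, cutadapt 3.7, DESeq2, bcl2fastq 2.20 and deepTools, with no settings; the annotation and strand setting of the counting are unknown here. Per the file headers, the first deposited column is the authors' mean of normalised counts, a signal. The authors deposited a log2 fold change and its SE in log2 units. The Wald statistic is a score computed by the authors. Each p-value and adjusted p-value is as the authors deposited it. Depth per library is unknown, and the SE (0.12 to 0.30, median 0.18) gives the precision.

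Members and lists were chosen with earlier results of these data known. Named genes were the 10 members, PCIF1 and up to 4 genes of each of 11 lists by smallest adjusted p, besides those needed for counts and overlaps. A few genes of the lists are counted but not reported here by name. Coordinates, lengths and GC content came from GENCODE 29 (13877 of 13885 identifiers matched); the main transcript ranked best by APPRIS, basic tag, support level and length. Intervals are 95%, from the deposited SE. The SE never exceeded 0.295. Unshrunken values were estimated on the reading that the fold changes were shrunken under a normal prior, which the header does not state. The SD of that prior, 0.590, was set from the largest SE, so the bound on the SE is no check of it. Group means were derived as those with the deposited mean as average and the unshrunken fold change as ratio. The trend was a weighted cubic spline fit with 4 knots per covariate. Steps were tested on data simulated under the same prior, so those tests do not check the prior. Computations ran in Python 3.11.15 (pandas 2.3.3, numpy 2.4.6, scipy 1.17.1; plots in matplotlib 3.10.9).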

Additional observations from a re-analysis of the deposited data

How the results depend on the processing

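No paired analysis was possible because the deposited table holds no values per library, and for the same reason no library could be left out. VIM kept its direction and its call under all 7 alternatives, from -1.64 to -1.20. When each Wald statistic was divided by the robust SD of all of them, 2.44, after which 0.972% of all genes passed, LMNA (-1.19, adjusted p = 0.0587), PRPH (-0.77, adjusted p = 0.419) and NEFM (0.39, adjusted p = 0.963, from the DESeq2 statistics) did not pass, which left 1 gene that fell and 0 that rose. At an adjusted p under 0.01 NEFM (0.39) did not pass and 0 rose, and against an absolute log2 change of 0.3 (unshrunken value 0.42) likewise 0 rose. After removal of the trend on GC content, length and expression, NEFL (0.40) and INA (0.47) passed, 3 genes rose, and the near-zero values of LMNB1 and LMNB2 turned to 0.016 and 0.22 without passing. Without shrinkage VIM, LMNA and PRPH were estimated at -1.64, -1.27 and -0.82.

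Of the lists, chaperones and turnover factors had 0 changed genes in place of 1 at an adjusted p under 0.01 and with the trend removed, lamin processing enzymes 1 in place of 3 under both, and Schwann and glial markers 0 in place of 1 with a mean of at least 100. With the trend removed, 3 kinases and phosphatases changed in place of 5 and 5 mesenchymal markers in place of 3, 1 of the added ones higher. Of all genes, 22.9% passed at an adjusted p under 0.01 and 24.9% with the trend removed. Per kb of the longest transcript, VIM was at 1134 and LMNB1 at 118 normalised counts. Inside the RefSeq bounds, an alternative chosen after seeing the data, as was the removal of the trend for the lists, NEFL was at 1336, NEFM at 445, INA at 366, PRPH at 2602, LMNA at 646 and LMNB2 at 161. The cause of these shifts was not tested. NEFH, with a mean of 91.8, is left out by the minimum of 100.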
